A study of Mus musculus with 7 samples.

Results

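Colon of Atg4b knock-out (KO) and wild-type (WT) mice treated with dextran sulfate sodium (DSS) was compared on one-colour Affymetrix arrays, 2 from KO and 1 from WT mice, which are 3 of the 7 arrays of the series. They were chosen by their labelled tissue, genotype and treatment. The mice had a mixed C57Bl6/129Sv background, were 3 months old and took DSS by mouth for 7 days and then water for 3 days. The other 4 arrays are control ileum and control colon of each genotype, 1 array each, at the same age and on the same background, and they give the level without DSS. The labels do not say how the Atg4b allele was made, which stretch of the colon was taken or whether the arrays stand for different animals. The p-values below thus reflect no more than the spread among these arrays, which may be technical. That spread also takes in any disagreement between control ileum and control colon on the genotype difference, because the fit gives both tissues a shared value. The comparison addresses how the colon transcriptome of mice without Atg4b differs from that of WT mice in chemically induced colitis.

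ATG4B is a cysteine protease of autophagy, the process in which a cell encloses part of its cytoplasm in a double membrane and delivers it to the lysosome. It trims LC3 and GABARAP, the mammalian Atg8 proteins, so that they can be joined to a lipid of the growing membrane, and it later releases them again. DSS injures the colonic epithelium, which is followed by infiltration of immune cells, loss of crypts and regrowth of the epithelium.

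A level is given below as log2 of the deposited intensity and a difference in log2 units, where 1 unit is a doubling. The median level of the 19938 genes lay between 7.3 and 7.41 on the 3 DSS arrays. Both KO DSS arrays are labelled female and the WT DSS array male, but all 3 had the female pattern: Xist, the RNA of the inactive X chromosome, was at 12.16 in WT and at 12.55 and 12.38 in KO replicates 1 and 2, and the Y-linked Eif2s3y was at 4.39, 4.28 and 4.31. The 4 control arrays had the male pattern, with Xist at 5.19 and 5.36 in WT and KO colon, although the WT controls are labelled female. The labelled sex of the WT mice thus went against these genes on every WT array. DSS and the measured sex pattern therefore cannot be told apart where DSS arrays are set beside controls. KO replicate 1 stood apart from the other DSS arrays. Its differences from WT had an SD over genes of 0.383, against 0.213 for KO replicate 2, 0.313 between the KO replicates and 0.271 between the genotypes in control colon. KO replicate 2 was thus nearer to the WT array than to the other KO array, and each KO array is reported separately.

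Atg4b itself separated the genotypes. Its level was 7.59 in WT DSS colon and 5.39 and 5.39 in KO replicates 1 and 2, with 7.35 and 5.45 in WT and KO control colon. The KO values were among the dimmest genes on their arrays (lower quartiles 5.87 and 5.74), where a difference may be understated. The fitted difference was -2.19 ± 0.18 log2 units (SE), with an adjusted p of 0.149 in limma, a linear model that borrows the spread across genes. Over the alternative settings that p lay between 0.000371 and 1.

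The other genes of Atg8 processing lay close to WT in both KO arrays. Among the related proteases, KO minus WT in replicates 1 and 2 was -0.14 and 0.01 for Atg4a, -0.29 and -0.01 for Atg4c and -0.12 and 0.08 for Atg4d. Of the Atg8 proteins, Map1lc3b (LC3B) was at 10.76 in WT and at 10.59 and 10.60 in KO, and Gabarap at 12.79 and at 12.77 and 12.84. After Atg4b, the gene of this list farthest from WT was Gabarapl1, a GABARAP relative, with differences of 0.78 and 0.24. The conjugation machinery was near WT too: Atg7, which activates Atg8 proteins, differed by -0.07 and 0.03, Atg3, which transfers them to lipid, by -0.28 and 0.00, and Atg5, part of the complex that directs the transfer, by -0.23 and 0.05. Of the 16 genes of this list 1, Atg4b, lay at least 1 unit from WT in either array. Over all genes, 514 of 19938 did in replicate 1 and 78 in replicate 2. The list median was -0.07 in replicate 1 and 0.02 in replicate 2, against 0.03 and -0.01 for all genes.

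The rest of the pathway also lay close to WT, as most genes did. None of the 18 genes of autophagy initiation and membrane supply and none of the 15 measured cargo receptor and lysosome genes lay at least 1 unit from WT in either KO array. Over all genes, 514 of 19938 lay that far from WT in replicate 1 and 78 in replicate 2, so lists of this size would often hold none. Sqstm1 (p62), a receptor that is itself degraded by autophagy, was at 11.25 in WT and at 11.52 and 11.34 in KO. Bnip3, a mitophagy receptor that is also a hypoxia target, was at 9.48 in WT and at 8.90 and 9.97 in KO, so that the KO arrays lay on opposite sides of WT.

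The 12 measured genes nearest to Atg4b on chromosome 1, 6 on each side, were examined because they lie beside the targeted allele. Each lay within 0.5 units of WT in both KO DSS arrays. Values this near to WT were common, as the quartiles over all genes were -0.145 and 0.205 in replicate 1 and -0.106 and 0.088 in replicate 2. Thap4, the nearest on one side, differed by -0.21 and -0.38 in replicates 1 and 2, and Dtymk, the nearest on the other, by -0.22 and -0.10. The farthest from WT was Pdcd1, with 0.49 and 0.07.

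Over all genes, 27 lay at least 1 log2 unit above WT in both KO DSS arrays (0.135% of 19938) and 17 at least 1 unit below it in both (0.0853%). Both differences of a gene share the single WT array, and no relation between them was computed. Replicate 1 alone had 373 genes at least 1 unit above WT (1.87%) and 141 below (0.707%), and replicate 2 alone had 46 above (0.231%) and 32 below (0.16%). In limma, fitted on all 7 arrays, none passed an adjusted p of 0.05 for KO minus WT in DSS colon (0% called), and 776 genes had an unadjusted p under 0.05, of which 474 were higher and 302 lower in KO (3.89% together). Nearest to the threshold were AI506816, Atg4b and Zan, each with an adjusted p of 0.149. The count depended on the fit: 3 genes passed with each array centred on its median, 2 with dim genes left out and 10 with a variance trend and a robust fit. Without KO replicate 1 there were 25 and without KO replicate 2 there were 538, in fits where each DSS group is 1 array that is assumed to vary like the other groups.

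**Figure D1:**
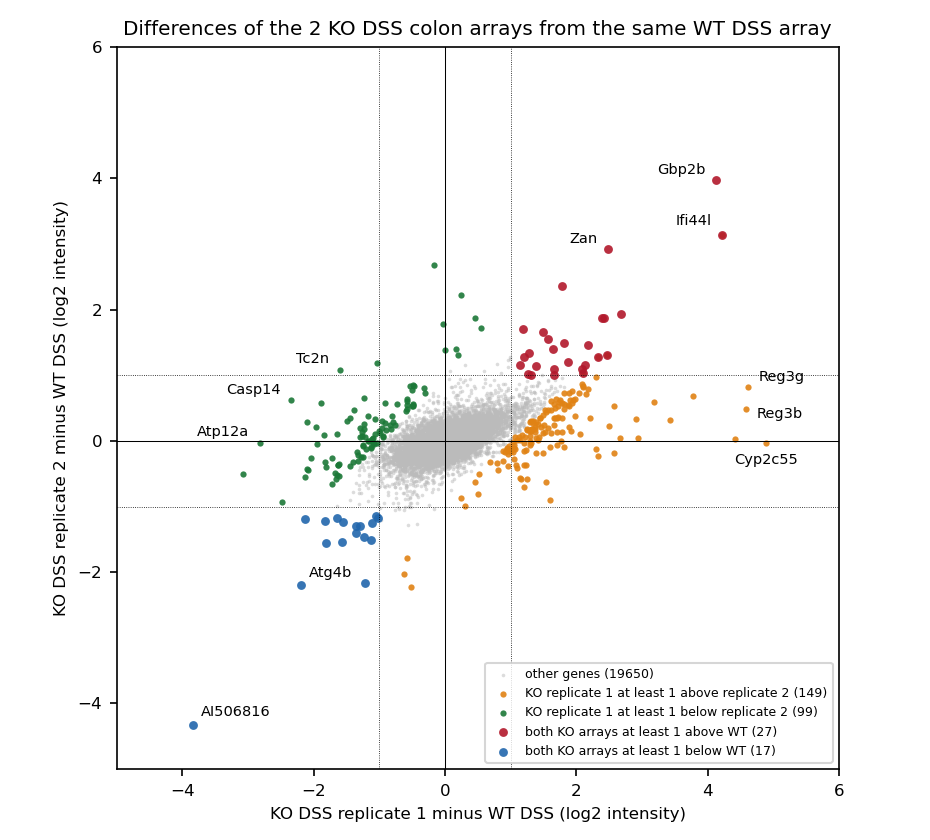
Difference from the WT DSS colon array (log2 intensity) of KO DSS replicate 1 (x axis) and KO DSS replicate 2 (y axis), 1 point per gene for 19938 genes; dotted lines mark 1 log2 unit, and a gene in an agreeing and a parting class has the colour of the agreeing class. The cloud is wider along the axis of replicate 1, Gbp2b and Ifi44l lie far above WT in both arrays, AI506816 and Atg4b below it in both, and Cyp2c55, Reg3b and Reg3g differ in replicate 1.

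The genes farthest above WT in both KO arrays, Gbp2b and Ifi44l, are interferon-inducible. Gbp2b, a guanylate-binding GTPase, was at 6.79 in WT DSS colon and at 10.91 and 10.77 in KO replicates 1 and 2. In control colon it was at 7.00 and 5.89 in WT and KO, so the KO DSS arrays were high and the WT DSS array was near the WT control. The fitted difference was 4.05 ± 0.49 log2 units (limma, adjusted p = 0.464, between 0.000288 and 0.721 over the alternative settings). Ifi44l, named for its likeness to the interferon-induced gene Ifi44, was at 5.82 in WT and at 10.03 and 8.95 in KO, with 5.73 and 5.92 in control colon. Its fitted difference was 3.67 ± 0.49 (limma, adjusted p = 0.464), and this gene too passed in no setting that kept both KO arrays. The KO replicates differed from each other by 1.09 on this gene, and both were far from WT.

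The promoters of Gbp2b, of Gbp5 on the same chromosome and of Ifi44l are shown because Gbp5 belongs to the same family as Gbp2b and lay near WT in both KO arrays. Gbp5, chosen for this after its values were seen, was at 9.56 in WT DSS colon and at 9.49 and 9.34 in KO, against 5.28 and 5.54 in control colon. The sequences are RefSeq windows of GRCm38.p6, 250 bases before to 50 after the start of the gene, read 5′ to 3′ on its strand. Capitals mark matches to GAAANNGAAA, the core of the interferon-stimulated response element, on either strand. The windows lie at chr3:142594597-142594896 (plus strand), chr3:142496684-142496983 (plus strand) and chr3:151762842-151763141 (minus strand), in the order shown.
Gbp2b: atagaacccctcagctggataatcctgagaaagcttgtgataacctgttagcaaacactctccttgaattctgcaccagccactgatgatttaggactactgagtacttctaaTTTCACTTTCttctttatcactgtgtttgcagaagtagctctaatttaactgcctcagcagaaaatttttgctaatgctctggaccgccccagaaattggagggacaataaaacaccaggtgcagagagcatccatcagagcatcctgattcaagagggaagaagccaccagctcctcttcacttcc
Gbp5: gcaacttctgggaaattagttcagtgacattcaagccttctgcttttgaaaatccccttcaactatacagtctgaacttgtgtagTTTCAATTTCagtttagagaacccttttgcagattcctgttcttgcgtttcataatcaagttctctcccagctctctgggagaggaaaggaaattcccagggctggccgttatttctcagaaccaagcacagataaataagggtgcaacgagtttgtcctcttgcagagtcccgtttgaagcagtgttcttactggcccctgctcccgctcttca
Ifi44l: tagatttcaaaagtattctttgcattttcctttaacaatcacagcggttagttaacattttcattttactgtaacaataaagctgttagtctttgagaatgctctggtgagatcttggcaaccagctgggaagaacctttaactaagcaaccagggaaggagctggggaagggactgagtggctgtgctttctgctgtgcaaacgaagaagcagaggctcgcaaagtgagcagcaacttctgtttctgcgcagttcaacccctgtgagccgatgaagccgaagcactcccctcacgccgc
Gbp2b and Gbp5 each hold 1 match and Ifi44l holds 0. Over all genes 3.99% of 27025 windows held a match, against 9 of 9 windows available for the list of interferon-gamma-inducible GTPases (100%) and 10 of 19 of the interferon-stimulated list (52.6%). The 9 windows are those of Gbp2b, Gbp3, Gbp5, Gbp7 and Irgm1, which were measured, and of Gbp2, Igtp, Irgm2 and Tgtp1, whose levels were not analysed here. Gbp4, Gbp8, Gbp9 and Iigp1 were measured and had no window.

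The other members of the 2 interferon lists lay within 1 unit of WT. The other 8 measured interferon-gamma-inducible GTPases differed by between -0.43 (Gbp8, replicate 1) and 0.49 (Gbp9, replicate 2). Iigp1, an immunity-related GTPase, was at 10.74 in WT and at 11.11 and 11.15 in KO, against 5.90 and 6.31 in control colon, so all 3 DSS arrays were high. Of the 22 measured genes of the interferon-stimulated list, Ifi44l lay at least 1 unit above WT in both arrays, and the other 21 lay between -0.38 and 0.76 in replicate 1 and between -0.37 and 0.66 in replicate 2. Rsad2 (viperin) was at 8.64 in WT and at 9.39 and 8.88 in KO, and Usp18, which removes ISG15 from proteins, at 10.10 and at 10.24 and 10.76. The list median was 0.20 and 0.23, against 0.03 and -0.01 for all genes. Interferon-inducible genes outside the lists did not all lie near WT, as 3 of the Ifi200 family show, chosen after their values were seen. KO minus WT in replicates 1 and 2 was -0.63 and -2.03 for Ifi213, -0.57 and -1.78 for Ifi206 and -0.16 and 2.69 for Ifi202b. Replicate 2 was the array farther from WT on each. Ifi202b was at 4.32 in WT and 4.16 in replicate 1, both below the lower quartile, and at 7.01 in replicate 2. Ifi214, of the same family, differed by less, by -0.30 and 0.73. Gbp genes resemble each other in sequence, so that single members are uncertain where probes are shared.

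Most of the other genes above WT in both KO arrays were low in WT DSS colon. Reg4, a secreted lectin of the deep crypt secretory cells of the colon, was at 9.78 in WT and at 11.27 and 11.44 in KO, with 13.05 and 12.82 in control colon. Nxpe2 was at 7.67 in WT, at 10.10 and 9.55 in KO and at 11.92 and 11.89 in control colon. In both genes the KO arrays lay between the WT DSS array and the controls. Zan, which encodes zonadhesin, a protein known from sperm, was at 6.34 in WT and at 8.83 and 9.26 in KO, nearer to the control colons at 9.79 and 9.54. Its fitted difference was 2.70 ± 0.22 (limma, adjusted p = 0.149). That p was 0.0335 with each array centred on its median, 0.045 with dim genes left out and 0.00679 with a variance trend and a robust fit. It passed 0.05 in no other setting that kept both KO arrays. Pm20d1, a secreted enzyme that makes N-acyl amino acids, was at 5.59 in WT, below the lower quartile of that array, and at 8.27 and 7.52 in KO. Penk (proenkephalin), the kallikrein Klk1b22 and Ceacam10, of the carcinoembryonic antigen family, had fitted differences of 1.65 ± 0.20, 1.82 ± 0.41 and 1.52 ± 0.22. In each of these the WT DSS array was the lowest of the 5 colon arrays.

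A smaller group was highest in the KO DSS arrays. Chil1, a chitinase-like protein of inflamed tissue, was at 7.56 in WT and at 9.95 and 9.42 in KO, against 6.16 and 6.55 in control colon. Lpo, which encodes lactoperoxidase, was at 9.11 in WT and at 10.88 and 11.47 in KO, against 8.55 and 8.10. Steap4, a metalloreductase of iron and copper, was at 8.83 in WT and at 10.41 and 10.39 in KO, against 7.05 and 6.94. The KO replicates were close to each other on Steap4, and its fitted difference was 1.57 ± 0.15 (limma, adjusted p = 0.234). Of the 27 genes, 6 lay at least 1 unit above both control colons in both KO DSS arrays: Chil1, Chn2, Gbp2b, Ifi44l, Lpo and Steap4. In 15 of the 27 the WT DSS array lay at least 1 unit below both control colons, a description that shares the WT array with the choice of the genes.

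The class also held genes of muscle, nerve and connective tissue: Cnn1 (calponin of smooth muscle), Ogn (a small proteoglycan), Rgs5 (a pericyte marker) and Scn7a (a sodium channel of glia). These 4 of the 27 stand on lists described further down that together hold 82 measured genes. Of all genes, 0.135% are in the class. The lists were chosen with earlier results of these data known. Cnn1 was at 9.96 in WT and at 12.09 and 11.12 in KO, and Rgs5 at 7.93 and at 10.40 and 9.23, with replicate 1 the higher in both. The other members of the class are Aadac, Aspn, Ccnb1ip1, Gm609, Hspb1, Htr2b, Mir145a, Slc12a8, Sst and Tcea3, which like Chn2 fell outside the rule for named genes and are listed after their values were seen. Just inside the limit was Aadac, with a smaller difference of 1.00, and just outside it Calb2, with 0.996.

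The 17 genes below WT in both KO arrays hold, besides Atg4b, 2 of 20 measured cytokines (Il1a and Ifng), 2 of 26 chemokines (Ccl3 and Ccl5) and 1 of 18 neutrophil genes (Clec4d), where 0.0853% of all genes are in the class. The chemokine Ccl3, made by myeloid cells, was at 11.05 in WT and at 10.003 and 9.91 in KO, and Ccl5, which draws T cells and monocytes, at 10.70 and at 9.15 and 9.46. Their fitted differences were -1.09 ± 0.33 and -1.39 ± 0.19. In control colon Ccl3 was at 6.08 and 5.83 and Ccl5 at 8.19 and 8.05, so that all 3 DSS arrays were above the controls and the WT array was the highest. The cytokine Il1a was at 10.31 in WT and at 8.67 and 9.13 in KO, with 4.75 and 4.77 in control colon. Ifng, which encodes interferon-gamma, was at 8.19 in WT and at 7.08 and 6.94 in KO, with 5.63 and 5.64 in control colon, and its fitted difference was -1.18 ± 0.16 (limma, adjusted p = 0.464). None of these genes passed.

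Clec4d, Fcmr, Hcar2, Wfdc17 and Wfdc18 were also highest in WT DSS among the colon arrays. Clec4d, a lectin receptor of myeloid cells, was at 8.39 in WT and at 7.16 and 6.93 in KO, against 5.45 and 5.98 in control colon. Fcmr, the Fc receptor of IgM, was at 8.98 in WT and at 7.63 and 7.58 in KO, against 7.45 and 7.82, so the KO DSS arrays were at the control level. Hcar2, a receptor of niacin and butyrate, was at 8.20 in WT and at 7.08 and 6.69 in KO. Wfdc17 and Wfdc18 encode small proteins with a WAP domain and may share probes. Wfdc18 was at 10.59 in WT and at 8.78 and 9.03 in KO, against 8.34 and 8.11 in control colon, and Wfdc17 at 11.30 and at 10.01 and 10.003, against 9.65 and 9.79. The KO replicates lay close together on Fcmr and Wfdc17.

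The sialyltransferase St8sia5 was at 7.77 in WT and at 5.64 and 6.59 in KO, and Fer1l4, of the ferlin family, at 8.37 and at 7.15 and 6.21. Their KO replicates were nearly 1 unit apart, with replicate 1 minus replicate 2 at -0.95 and 0.94. AI506816, a transcript the naming rule leaves out and that was chosen after its values were seen, had the largest difference of the class. It was at 11.91 in WT and at 8.07 and 7.59 in KO, with 10.15 and 10.24 in control colon, and was 1 of 17 in lying at least 1 unit below both control colons in both KO DSS arrays. In 14 of the 17 the WT DSS array lay at least 1 unit above both control colons, which again shares the WT array with the choice of the genes. The other members, also outside the rule, are Bcl2a1c, Gm10044, Krtap13 and Nlrp3. Just inside the limit was Nlrp3, the inflammasome sensor, with a smaller difference of -1.02, and just outside it Clec4e, a lectin receptor of myeloid cells, with -0.996.

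**Figure D2:**
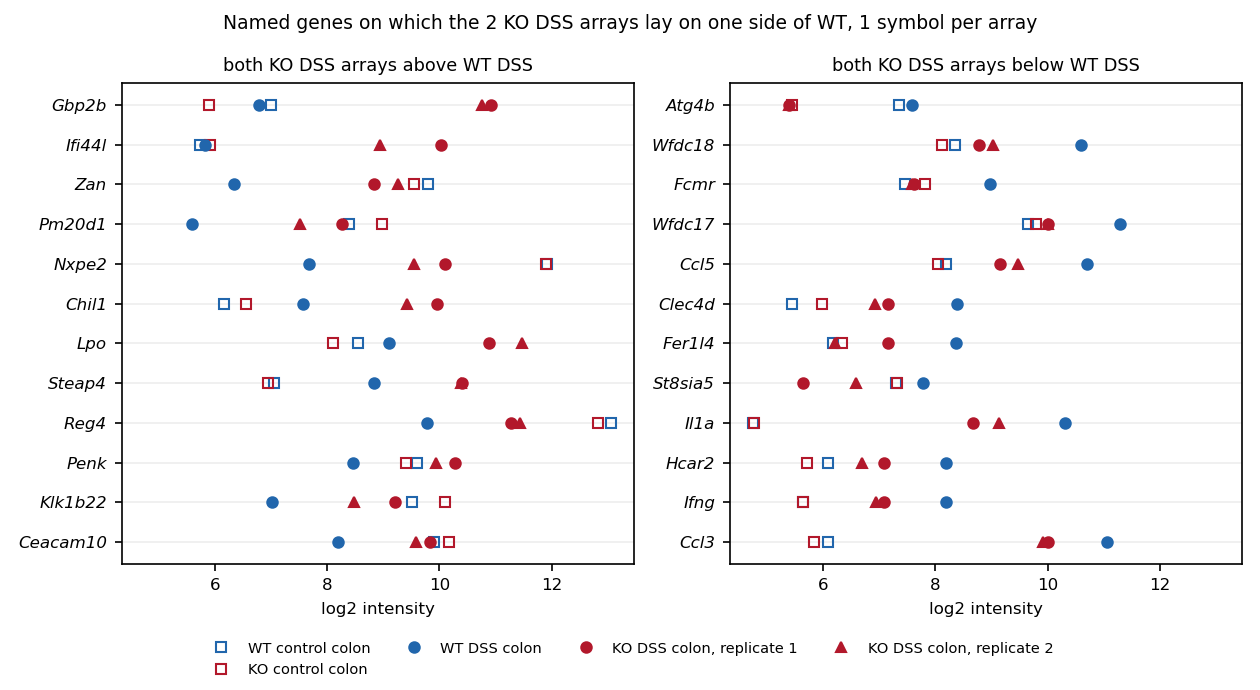
Log2 intensity on each of the 5 colon arrays (x axis) of the 12 named genes above WT (left) and the 12 below WT (right) in both KO DSS arrays, 1 symbol per array; filled symbols are DSS arrays and open squares controls. For Gbp2b and Ifi44l the KO DSS arrays stand apart from all others, for Zan the WT DSS array does, and for Ccl3 and Il1a all DSS arrays lie above the controls with WT highest.

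The genotype difference of these genes was also read in the control arrays, which played no part in choosing them. In control colon 0 of the 27 genes above WT in DSS lay at least 1 unit above WT (0.176% of all genes), and 1, Gbp2b, lay at least 1 unit below it (0.286% of all genes). With shares this small over all genes, 0 of 27 says little about these genes. Of the 17 below WT in DSS, Atg4b lay at least 1 unit below WT in control colon and 0 lay above. The median KO minus WT difference in control colon was -0.02 for the 27 and 0.01 for the 17, against -0.05 for all genes. In control ileum 2 of the 27 lay at least 1 unit above WT (7.41%, against 0.622% of all genes) and 0 below (0.266% of all genes). Of the 17, 2 lay above and 2 below (11.8% each, against the same shares). With 1 control array per genotype these values have no replicate check.

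The KO arrays also parted on some genes. Parting was counted by 1 difference between the KO arrays and agreement by 2 differences from WT, so their counts are not alike. By differences from WT of at least 1 unit in each array, 44 genes agreed and 2 lay on opposite sides. Those differences share the WT array. Replicate 1 lay at least 1 unit above replicate 2 for 149 genes (0.747%) and at least 1 unit below it for 99 (0.497%), and with each array centred on its median the split was 124 and 126. Each of these differences compares 1 array with 1 array and has no replicate check. Just inside the limit were Cryab (1.00) and Nos2 (-1.0001), and just outside it Ogn (0.9997) and Ly6g2 (-0.996). In most of the genes named below, WT and replicate 2 were close and replicate 1 was the array that differed.

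Among the named genes, the largest differences of replicate 1 above replicate 2 were those of Cyp2c55, Cyp2c65, Reg3b and Reg3g. Cyp2c55, a cytochrome P450 of the colon, was at 4.81 in WT, 9.69 in replicate 1 and 4.78 in replicate 2, with 10.68 and 10.001 in control colon. Its relative Cyp2c65 was at 5.31, 9.72 and 5.34. On Cyp2c55 replicate 1 was near control colon, and on Cyp2c65, with 7.26 and 6.50 in control colon, it was above it. The bactericidal lectins Reg3b and Reg3g were above the control colons in all DSS arrays and highest in replicate 1: Reg3b was at 8.26 in WT, 12.85 in replicate 1 and 8.74 in replicate 2, against 5.28 and 5.34 in control colon and 13.42 and 13.08 in control ileum. Reg3g was at 8.13, 12.75 and 8.95. Reg3b and Reg3g resemble each other in sequence, so that their signals may not be separate. The epithelial antimicrobial list as a whole had no such direction: of its 22 measured genes 10 were higher and 12 lower in replicate 1 than in replicate 2, with a median of -0.05 against 0.04 for all genes. Pla2g2a, a bactericidal phospholipase, was at 10.55 in WT, 9.27 in replicate 1 and 10.31 in replicate 2.

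Fabp2, Alpi, Slc3a1, B3gnt6, Sptssb and Car3 were the other genes named on this side. Fabp2, the intestinal fatty acid binding protein, was at 7.73 in WT, 10.68 in replicate 1 and 7.78 in replicate 2, against 7.59 and 8.42 in control colon and 13.01 and 13.25 in control ileum. Alpi, the intestinal alkaline phosphatase, was at 6.17, 8.83 and 6.21, and Slc3a1, part of a cystine transporter, at 6.41, 9.60 and 7.01. All 3 were higher in control ileum than in replicate 1. B3gnt6, which builds the core 3 mucin glycan, was at 5.67, 9.09 and 5.99, and Sptssb, a subunit of the enzyme that starts sphingolipid synthesis, at 8.29, 10.87 and 8.11. Car3, a carbonic anhydrase of fat and muscle, was at 6.21, 9.999 and 6.89, with 11.25 and 7.23 in control colon of WT and KO.

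On the side lower in replicate 1 the genes named had differing roles. Hoxb13, a homeobox gene of the posterior body axis, was at 10.54 in WT, 8.59 in replicate 1 and 10.50 in replicate 2, against 11.13 and 11.07 in control colon and 5.55 and 5.40 in control ileum. Atp12a, the colonic potassium pump, was at 11.30, 8.48 and 11.27, and Scnn1g, a subunit of the epithelial sodium channel, at 8.57, 7.19 and 9.04. Casp14, a caspase of cornified epithelium, was at 7.89, 5.55 and 8.51. In each of these 4, replicate 1 was the lowest DSS array. Lrg1, an acute-phase glycoprotein, was at 11.02, 9.13 and 11.61, the neutrophil chemoattractant Cxcl5 at 8.35, 6.50 and 8.44, and Ltf (lactoferrin of neutrophil granules) at 7.37, 5.88 and 7.67. The nucleoside transporter Slc28a3, the sialyltransferase St6galnac1 and Tc2n had replicate 1 minus replicate 2 of -2.39, -1.89 and -2.69.

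**Figure D3:**
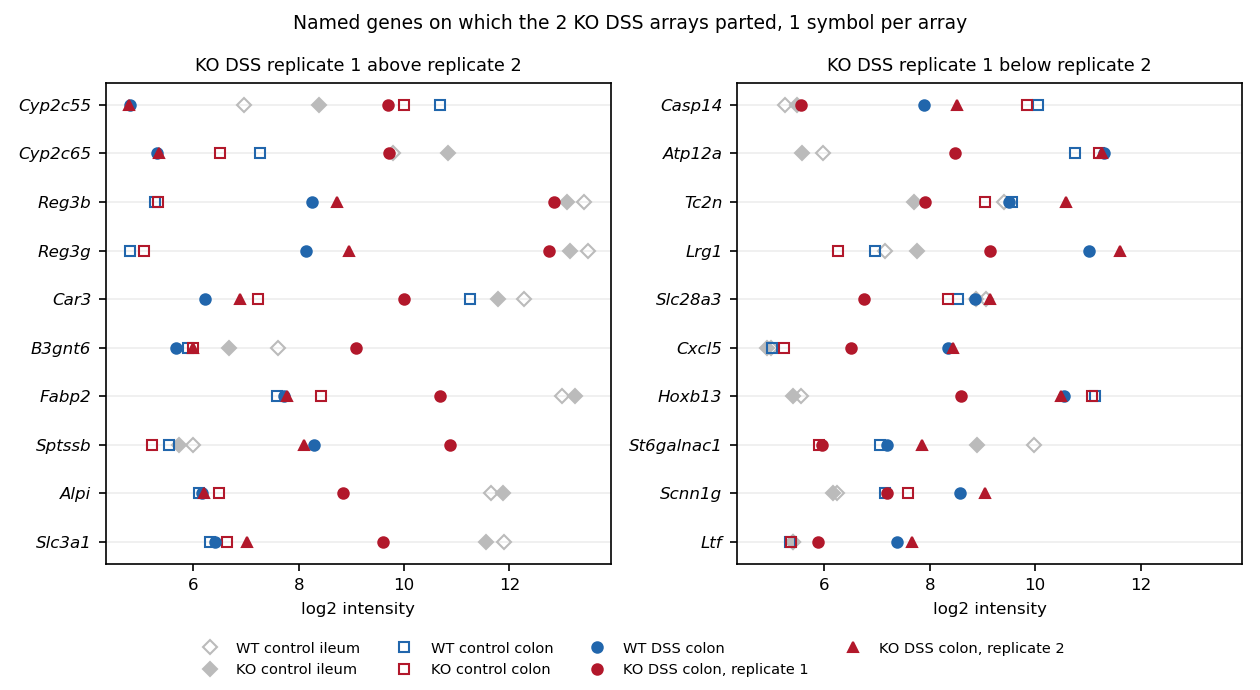
Log2 intensity on each of the 7 arrays (x axis) of the 10 named genes higher in KO DSS replicate 1 than in replicate 2 (left) and the 10 lower in it (right), 1 symbol per array. Filled circles and triangles are DSS colon arrays and open squares control colon. Grey diamonds are control ileum, open for WT and filled for KO. For most genes KO replicate 2 lies beside WT DSS and replicate 1 apart from both, as for Cyp2c55 and Atp12a.

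A few genes put the KO arrays on opposite sides of WT. Mep1a, a brush-border metalloprotease, was at 9.17 in WT, 10.76 in replicate 1 and 8.27 in replicate 2. Guca2a, which encodes guanylin, a regulator of fluid secretion, was at 11.25, 12.45 and 10.55. Aldoc, a glycolytic aldolase, went the other way, at 8.42, 7.83 and 9.02. Mettl7b, Hsd3b2 and Hsd3b3 were above WT in replicate 1 and below it in replicate 2, and the Hsd3b genes, which make steroids, resemble each other in sequence. At least 1 unit on each side lay 2 genes (0.01%): Tc2n, at 9.50, 7.90 and 10.59, and Mir200b, the gene of an epithelial microRNA, at 7.24, 6.21 and 8.42. Mir200b is a small RNA outside the naming rule and was chosen after its values were seen.

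The parting genes were then set beside differences measured on other arrays. Of the 149 genes higher in replicate 1, 49 (32.9%) were at least 1 unit higher in control ileum than in control colon, against 3.55% of all genes, and 82 (55%) were at least 1 unit lower in WT DSS than in WT control colon, against 3.57%. The 49 are 6.92% of all genes higher in ileum, and the 82 are 11.5% of all genes lower in WT DSS. Of the 99 lower in replicate 1, 34 (34.3%) were at least 1 unit lower in ileum than in colon, against 2.05% of all genes, and 35 (35.4%) were at least 1 unit higher in WT DSS than in WT control colon, against 3.52%. These are 8.33% of the genes lower in ileum and 4.99% of those higher in WT DSS. Genes went the other way too, since 19 of the 99 (19.2%) were higher in ileum.

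Markers of tissue were read on the same arrays. Fabp6, Sis and Defa24, which were high in WT control ileum at 12.30, 12.71 and 12.44, were at 5.23, 4.72 and 4.16 in replicate 1. They were chosen with earlier results of these data known. Other genes high in ileum went the other way. Fabp2, Alpi and Slc3a1 were at 10.68, 8.83 and 9.60 in replicate 1, against 7.73, 6.17 and 6.41 in WT DSS. The mean level of the 20 small intestinal absorptive genes was 7.40 in replicate 1, against 7.00 in WT DSS, 7.07 in replicate 2 and 10.93 in WT control ileum. The colon regional identity list of 14 measured genes had a median difference from WT of 0.04 in replicate 1 and -0.02 in replicate 2, and 9 of the 14 were higher in replicate 1 than in replicate 2. Its means went the other way, at 7.84 in WT, 7.69 in replicate 1 and 7.84 in replicate 2, with 6.70 in WT control ileum. Hoxb13 and Hoxd13 were the 2 members at least 1 unit below WT in replicate 1. Hoxd13, which like Hoxb13 marks the hindgut end, was at 9.12 in WT, 6.64 in replicate 1 and 8.19 in replicate 2, and Cdx2, an intestinal identity factor, at 9.66, 10.56 and 9.74. The position along the colon from which each sample came is not stated, and its part in these differences was not tested.

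Muscle and connective tissue lists were higher in replicate 1, and less so in replicate 2. All 20 smooth muscle genes were higher in replicate 1 than in replicate 2, where 57.8% of all genes were, and 14 of them lay at least 1 unit above WT in replicate 1 (1.87% of all genes) and 1 in replicate 2 (0.231%). The list mean was 8.98 in WT, 10.36 in replicate 1 and 9.46 in replicate 2, against 10.77 in WT control colon. The median difference from WT was 1.35 in replicate 1 and 0.52 in replicate 2. Actg2, the actin of gut smooth muscle, was at 9.51, 11.66 and 10.22, Myh11, its myosin heavy chain, at 9.25, 11.04 and 9.83, and Pln (phospholamban) at 5.45, 8.35 and 5.79. WT DSS was the lowest colon array on each of them. In bulk tissue, fewer cells of a type and less RNA per cell cannot be told apart.

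The other stromal lists had smaller differences. Of 24 fibroblast and matrix genes, 23 were higher in replicate 1 than in replicate 2 (57.8% of all genes). At least 1 unit above WT lay 10 of them in replicate 1 (1.87% of all genes) and 1 in replicate 2 (0.231%). Their mean was 8.15 in WT, 9.12 in replicate 1 and 8.65 in replicate 2, and Dpt (dermatopontin) was at 8.52, 10.34 and 9.34. The 21 measured genes of enteric neurons and glia had medians of 0.84 and 0.49. Vip, a peptide of enteric neurons, was at 7.34 in WT and at 8.33 and 8.62 in KO, just under the limit for agreement. The 17 endothelial and pericyte genes had medians of 0.39 and 0.13, and the 14 adipocyte genes 0.64 and 0.06. Fabp4, the fatty acid binding protein of fat cells, was at 6.61, 8.55 and 7.19, with 9.25 and 7.35 in control colon of WT and KO.

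Cell cycle and cholesterol synthesis were lower in replicate 1. All 24 measured cell cycle genes were lower in replicate 1 than in replicate 2, where 41.7% of all genes were, with median differences from WT of -0.72 and -0.21. Cenpe, a kinetochore motor, was at 8.90, 7.79 and 8.59, and Plk1, a mitotic kinase, at 10.71, 9.84 and 10.32. The list mean was 9.76 in WT DSS, against 8.59 in WT control colon, so all 3 DSS arrays were above the controls. All 16 measured cholesterol synthesis genes were lower in replicate 1, with medians of -0.57 and 0.00. Cyp51, a sterol demethylase, was at 9.73, 8.79 and 9.72, and Idi1, of the mevalonate pathway, at 10.75, 9.83 and 10.57. On this list replicate 2 was at the level of WT.

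Epithelial lists differed by member. Of 17 crypt stem cell and Wnt target genes, 16 were higher in replicate 1 than in replicate 2 (57.8% of all genes), and Lgr5, the receptor that marks crypt stem cells, was at 6.33, 7.998 and 6.67, with 8.76 and 7.76 in control colon. Among 13 measured goblet cell genes, the medians were 0.45 and 0.20. Retnlb, a goblet cell protein directed against bacteria, was at 10.04, 12.03 and 10.43, and Spdef, a goblet cell transcription factor, at 8.97, 10.05 and 9.44. Of 30 measured xenobiotic metabolism genes, 8 lay at least 1 unit above WT in replicate 1 (1.87% of all genes) and 0 in replicate 2 (0.231%). The efflux pump Abcb1a was at 8.63, 10.12 and 8.75, with 11.90 and 11.25 in control colon.

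The 20 measured cytokines had medians of -0.37 in replicate 1 and -0.30 in replicate 2, and 2 of them, Il1a and Ifng, lay at least 1 unit below WT in both. Il6 was at 7.01 in WT and at 5.69 and 6.22 in KO, against 4.03 and 4.08 in control colon, and Il1f9, an interleukin-1 family member, at 7.84 and at 6.85 and 6.81. The list means were 7.78 in WT, 7.32 and 7.41 in KO and 6.25 and 6.33 in control colon, so all DSS arrays were above the controls. The 26 measured chemokines had medians of -0.06 and 0.06, and 2, Ccl3 and Ccl5, lay at least 1 unit below WT in both. Ccl9 was on the other side in replicate 1, at 7.71, 8.91 and 7.98. The 18 measured neutrophil genes had medians of -0.42 and -0.08, with Clec4d below WT in both arrays by at least 1 unit. Lcn2, an iron-sequestering protein of neutrophils and epithelium, was at 9.88, 9.97 and 10.70. Of the 22 endoplasmic reticulum stress genes none lay at least 1 unit above WT in both arrays (0.135% of all genes) or below it in both (0.0853%), and the medians were -0.24 and 0.00.

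The other cell type lists lay within 0.5 units of WT by their medians in both KO arrays. The medians in replicates 1 and 2 were 0.00 and 0.14 for 20 macrophage and monocyte genes, -0.10 and -0.17 for 18 T and NK cell genes and -0.14 and -0.05 for 14 B and plasma cell genes. For the 17 genes of squamous epithelium, a tissue that borders the colon, they were 0.03 and 0.00. Single members differed more: Cd14, a receptor of bacterial lipopolysaccharide, was at 10.27 in WT, 9.01 in replicate 1 and 10.35 in replicate 2. Acod1, the itaconate enzyme of activated macrophages, was at 11.05, 10.52 and 10.10.

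**Figure D4:**
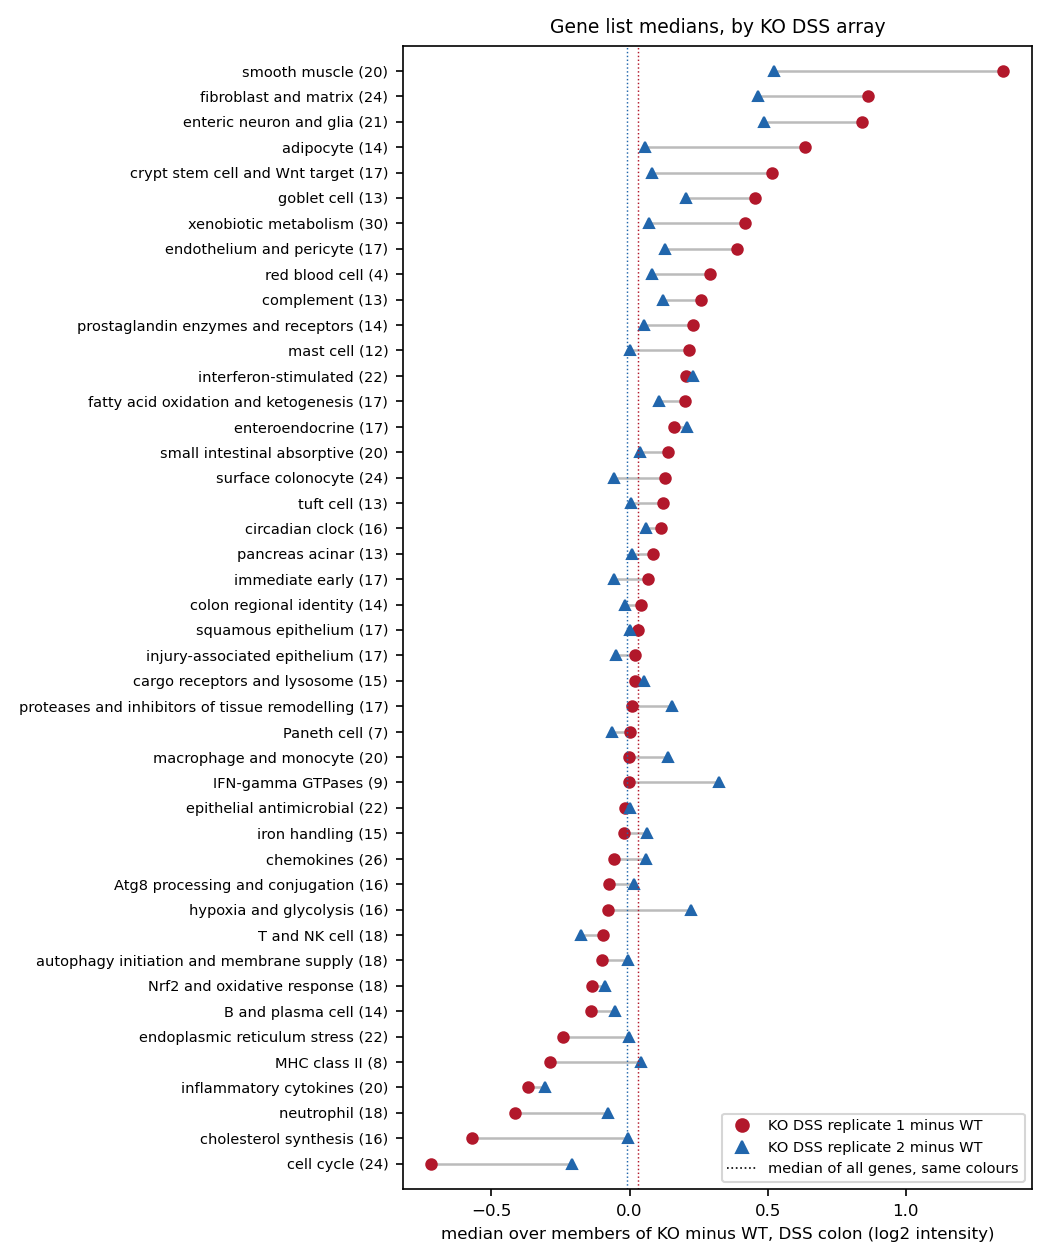
Median over the measured members of each gene list (number in brackets) of the difference from WT DSS colon (x axis, log2 intensity), circles for KO DSS replicate 1 and triangles for replicate 2; dotted lines are the medians of all genes. The 2 arrays differ most on smooth muscle (1.35 and 0.52), adipocyte, cholesterol synthesis and cell cycle lists, and both lie below WT on inflammatory cytokines.

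Whether the genotype difference in DSS colon differed from that in the controls was tested by the interaction term of the same limma fit. None of 19938 genes passed an adjusted p of 0.05 (0% called), and 639 had an unadjusted p under 0.05, of which 360 were positive and 279 negative (3.2% together). The smallest adjusted p was 0.571. Among the largest terms, Gbp2b had 4.24 ± 0.63, Zan 3.04 ± 0.28, Il1a -1.95 ± 0.45, Wfdc17 -1.95 ± 0.39 and Wfdc18 -1.80 ± 0.32 log2 units (SE). Retnlb had 3.34 ± 0.79 and Ifi213, an interferon-inducible gene, -2.01 ± 0.67. The terms of Car3 (4.49 ± 1.84), Slc6a14 (3.00 ± 1.75) and St3gal4 (-2.49 ± 1.83) have large errors. Slc6a14, an amino acid transporter, was at 11.32 and 5.68 in WT and KO control ileum, and the sialyltransferase St3gal4 at 7.34 and 12.47, so that the ileum arrays enter these terms.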

How the data were processed

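RNA of the 7 intestinal samples was isolated on RNeasy columns and carried a biotin label for hybridisation to Affymetrix arrays, per the labels' protocols. The values the authors deposited are linear intensities (10.4 to 22236.4) for 35512 probe sets, summarised and normalized by steps not given in the sources used here. In planning, the design had assumed log2 values, so log2 of the intensity was taken first. Each array gives 1 value per gene, and the number of arrays limits the precision. GEO's platform annotation gave 1 symbol to 21789 probe sets, several to 1621 and none to 12102. The probe set with the highest mean stood for each of 19938 genes.

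KO minus WT in DSS colon and its interaction with DSS were fitted with limma 3.58.1 in R 4.3.3, with 5 coefficients over the 7 arrays, 2 residual degrees of freedom and Benjamini-Hochberg adjustment over all genes. The genotype difference in controls was a single coefficient shared by ileum and colon. The residual spread thus came from the KO DSS pair and from the disagreement of those tissues on that difference. The fit was also run on simulated arrays. Their noise followed the assumptions of the model, so that run cannot say how the fit does on these arrays. Labelled sex coincides with genotype in DSS colon and could not be fitted. The genes named were, each way, the 12 with the largest difference shared by both KO arrays, the 10 with the largest difference between the KO arrays and 5 on opposite sides of WT. They had to exceed 7.35, the median of gene values on the DSS arrays, and predicted genes, small RNAs and receptor segments were left out. List members came from the 4 that agreed most and the 4 that parted most. The members and the 45 gene lists were chosen with earlier results of these data known. Of 810 list genes 729 were measured, and the others were not analysed here. Alternatives covered normalization, dim genes, probe choice, the variance model and each left-out array.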

Additional observations from a re-analysis of the deposited data

How the results depend on the processing

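Limma called 0 genes for KO minus WT under the main settings, against 776 at an unadjusted p under 0.05. The count was 3 with each array centred on its median, 2 with dim genes left out, 10 with a variance trend and a robust fit, and between 25 and 538 without a KO DSS array. With 1 mean per group, with colon arrays alone and without any 1 control array, the KO minus WT fit was the same. Its residual spread came from the KO DSS pair alone, so these settings are 1 check. The count stayed at 0 there and with quantile normalization, all probe sets and averaged probe sets. For the interaction it was 2 with the trend and robust fit and between 18 and 279 without a KO DSS array. At a limit of 1.5 log2 units, 8 genes lay above and 4 below WT in both KO arrays, and 38 were higher and 25 lower in replicate 1 than in replicate 2. With 1 KO array alone, a setting chosen after seeing the data, between 46 and 373 genes lay at least 1 unit above WT and between 32 and 141 below. No named agreeing or parting gene changed sign under the alternatives run for it. These genes were chosen for large differences on the same arrays, so a change of sign was hardly possible and this is no check. Of the recomputed list medians, 66 differed from the main value by more than the spread between the KO arrays and 339 did not. No paired analysis was possible because replicate numbers are given for KO DSS colon alone. The WT DSS group is 1 array, and leaving it out gives no comparison.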
